A study of Mus musculus with 12 samples.

Results

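Transcripts of the integrin subunits and laminin chains were described in mouse lung tumours and in the normal lung beside them. The genes were chosen by name, in a choice made with earlier results of these data known: protein-coding genes whose GENCODE symbol denotes an integrin α subunit, one of the integrin β subunits Itgb1 to Itgb8, or a laminin α, β or γ chain. This gave 37 genes of the 78298 in the count table, namely 18 α subunits, 8 β subunits and 11 laminin chains. RNA was sequenced from 12 lung libraries in 4 groups of 3: normal adjacent lung after VEH, normal adjacent lung after HDM, LLC tumours after VEH, and LLC tumours after HDM. HDM stands for house dust mite in the series title, and the design text calls the exposure chronic. VEH and LLC are used as the labels give them. Tumours and adjacent lung were cut out by hand under a microscope and frozen, and each extraction used a piece of about 1 mg. The labels give no strain, age, sex or dose, and do not say whether replicates came from separate animals, so the p-values measure only the spread between these samples, which may be technical. Library names carry 6 prefixes, each joining 1 normal and 1 tumour library. For 2 of the prefixes the treatment labels conflict: 1 of them joins normal VEH replicate 2 to tumour HDM replicate 2, the other normal HDM replicate 3 to tumour VEH replicate 3. Labels were kept as given.

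Integrins are cell-surface receptors made of 1 α and 1 β subunit, and the pair decides which ligand is bound: collagens, laminins, the RGD tripeptide motif of fibronectin and vitronectin, or counter-receptors on other cells. Laminins are trimers of 1 α, 1 β and 1 γ chain that assemble into the sheet of the basement membrane, to which epithelium, endothelium and smooth muscle attach. In the lung the chain encoded by Lama5 is found in most basement membranes, whereas the products of Lama3 and Lamb3 are part of a trimer made by epithelial cells, which the integrin of Itga6 and Itgb4 binds in hemidesmosomes.

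Libraries held between 20608682 and 32765364 counts in all. Levels are given as CPM, read counts relative to the TMM-scaled size of the library, and as RPKM, CPM per kilobase of the deposited gene length, where genes are compared with each other. The summed level of 6 endothelial markers was 1035 to 2321 CPM in normal lung and 91.2 to 422.8 CPM in tumours, and all 6 markers were lower in tumours. All 5 alveolar type 2 markers were lower as well (summed 15110 to 40200 CPM against 65.1 to 7782 CPM). Of 5 general epithelial markers 3 were lower, Krt18 was higher, and Epcam and Cdh1 were at 0 in tumour HDM replicate 3. None of 5 pan-leukocyte markers was called (summed 371 to 1696 CPM in normal lung, 490 to 1179 CPM in tumours). Normal libraries differed among themselves: alveolar macrophage markers summed to 7480, 7901 and 5465 CPM in normal VEH replicate 2 and normal HDM replicates 1 and 2, and to 214 to 322 CPM in the other 3. In such bulk tissue, fewer cells of a type and less RNA per cell cannot be told apart.

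Tumours held more RNA for the laminin chains Lamb1, Lamc1 and Lama5 and for the integrin subunits Itga5, Itgav and Itgb7, and less for the epithelial laminin chains Lama3 and Lamb3, for Lamb2 and Lamc3, and for Itga1, Itga8, Itga9, Itga2b and Itgb4. Of the 36 members with enough counts to test, 10 were higher and 16 lower in tumours over both treatments (6 libraries against 6, edgeR quasi-likelihood test with Benjamini-Hochberg adjustment, called at an adjusted p below 0.05). Over all 22190 genes tested, 62.9% were called in this comparison, 28.1% higher and 34.8% lower, so a call was common in this contrast. The median log2 change was -0.75 over the members and -0.09 over all genes. With a log2 change of at least 1 as well, 23 members were called, against 42% of all genes. In 17 members the 6 tumours did not overlap the 6 normal libraries, 5 lying above and 12 below, against 36.3% of all genes (16.4% above, 19.9% below). Of the 26 calls, 21 held whichever of the 12 libraries was left out. In such fits 57.3 to 61.3% of all genes were called, and the share of all genes called in every fit was not computed. The other 5 members (Itga6, Itga7, Itgam, Lama1 and Lamb3) are described below with the libraries they need. Itgad, a leukocyte α subunit, was not tested in this fit: it had 54 counts in all libraries together, and no tumour held more than 2.

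**Figure D1:**
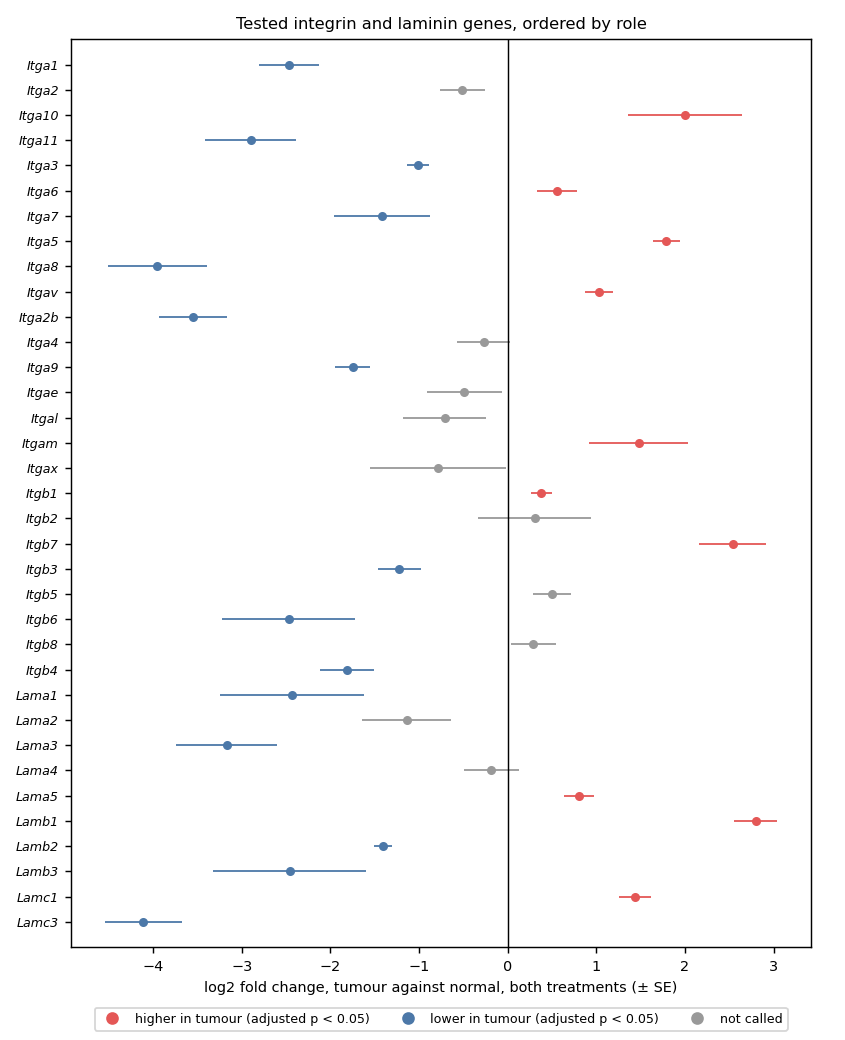
Log2 fold change of tumour against normal lung over both treatments (x axis, points with SE bars) for tested members, ordered by role (y axis). Red marks members called higher in tumours, blue those called lower and grey those not called; Lamc3 lies farthest to the left at -4.11 and Lamb1 farthest to the right at 2.80.

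Within VEH, 6 members were higher and 11 lower in tumours, against 38.9% of all genes called (18.2% higher, 20.6% lower). The count of 11 depended on single libraries: it was 7 without normal VEH replicate 1 or 3, and 5 without tumour VEH replicate 1 or 3. Over all genes, the 4579 lower calls became 3321 and 3216 without those normal libraries and 2451 and 2477 without those tumours. Within HDM, 9 members were higher and 17 lower, against 51.9% of all genes called (23% higher, 28.9% lower). Groups of 3 did not overlap for 21 members under VEH (52.4% of all genes) and for 28 under HDM (63.1% of all genes). With 1 library left out, 24.7 to 39.2% of all genes were called under VEH and 42.5 to 51% under HDM. The share of all genes called in every such fit was not computed. Called in every fit with 1 library left out were 9 members under VEH (Itga5, Itga8, Itga9, Itga2b, Itgb7, Lamb1, Lamb2, Lamc1 and Lamc3) and 18 under HDM. Of those 9, Itga8 lost its call under VEH with the library-name prefix as a block. Itga9 lost its own without the 4 libraries with conflicting prefixes.

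The 3 laminin β chains went in different directions, so the bases upstream of their genes are shown first. Each line gives the 250 bases before the gene's start in the RefSeq promoter table (build GRCm38.p6, plus strand, 5′ to 3′), with matches to a searched motif in capitals. The windows are chr12:31265043-31265292 for Lamb1, chr9:108479612-108479861 for Lamb2 and chr1:193301744-193301993 for the first of 2 starts listed for Lamb3.
Lamb1: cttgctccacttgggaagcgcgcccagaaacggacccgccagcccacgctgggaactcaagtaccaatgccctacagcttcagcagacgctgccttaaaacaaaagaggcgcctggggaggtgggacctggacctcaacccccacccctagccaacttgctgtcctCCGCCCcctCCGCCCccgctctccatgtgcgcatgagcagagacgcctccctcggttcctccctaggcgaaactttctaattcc
Lamb2: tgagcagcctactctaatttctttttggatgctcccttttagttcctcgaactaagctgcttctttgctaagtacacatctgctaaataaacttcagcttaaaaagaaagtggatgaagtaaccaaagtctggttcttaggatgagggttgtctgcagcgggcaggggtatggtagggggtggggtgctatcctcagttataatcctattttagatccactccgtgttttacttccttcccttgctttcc
Lamb3: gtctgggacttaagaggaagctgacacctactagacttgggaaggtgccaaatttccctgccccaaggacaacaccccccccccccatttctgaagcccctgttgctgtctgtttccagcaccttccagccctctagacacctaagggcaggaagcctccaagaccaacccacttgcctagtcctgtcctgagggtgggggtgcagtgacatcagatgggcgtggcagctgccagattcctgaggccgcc
The motifs searched, on both strands, were a GC box (GGGCGG), an AP-1 site (TGANTCA) and a TATA box (TATAAA), none of which overlaps another in these windows. Lamb1 held 2 GC boxes, both read on the reverse strand as CCGCCC, and the windows of Lamb2 and Lamb3 held none of the 3 motifs. Among all 32851 windows of this length in the table, 32.7% held a GC box, 6.75% an AP-1 site and 12.4% a TATA box. Of the 23 members with a window, 8 held a GC box in any of their windows, 1 an AP-1 site and 0 a TATA box. These counts are per gene, and some genes have more than 1 window, so they are not comparable with the shares per window. These matches describe the letters of the windows and were not tied to binding.

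Lamb1 (ENSMUSG00000002900, chromosome 12, 31315030 to 31379658 in GRCm39), the β chain of most laminins, had the largest rise of any member over both treatments. In the normal libraries it lay between 53.5 and 134 CPM, with a median of 101 CPM. The tumours held 449 to 784 CPM, with a median of 719 CPM. The lowest tumour, VEH replicate 2, was above the highest normal library, and the log2 change was 2.80 ± 0.24 (SE, adjusted p = 1.1e-05). It was 2.66 ± 0.34 under VEH and 2.93 ± 0.34 under HDM, where Itga10 rose by 2.94 ± 0.93. Lamb1 shares 303 exon bases with Dld on the opposite strand, which had 30690 counts against 125452 for Lamb1, and whether the counting used the strand is not given in the sources used here.

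Lamb2 (ENSMUSG00000052911, chromosome 9, 108356935 to 108367729), the β chain typical of mature basement membranes, moved the other way. Its level was 136 to 200.1 CPM in normal lung (median 165 CPM) and 51.8 to 83.2 CPM in tumours (median 57.3 CPM). Every tumour lay below every normal library, and the fall by 1.41 ± 0.10 on the log2 scale had the smallest adjusted p of the members (6.04e-06). Lamb3 (ENSMUSG00000026639, chromosome 1, 192890007 to 193027705), the β chain of the epithelial trimer, ranged from 30.8 to 188 CPM in normal lung (median 107 CPM) and from 0 to 40.8 CPM in tumours (median 19.3 CPM). The highest tumour, VEH replicate 2, lay above the lowest normal library, VEH replicate 1. Lamb3 fell by 2.46 ± 0.86 (adjusted p = 0.0284), a call that was lost on leaving out normal VEH replicate 2 or 3, normal HDM replicate 2, tumour VEH replicate 1 or 3, or tumour HDM replicate 1 (adjusted p up to 0.0792) and with the prefix as a block (-2.94, adjusted p = 0.053). The call of Lamb3 was also lost without the filter on low counts and without the 4 libraries with conflicting prefixes. Lamb3 was not called under VEH (-1.75 ± 1.19, adjusted p = 0.253) or under HDM (-3.16 ± 1.25, adjusted p = 0.0552). Lamb3 overlaps G0s2 on the opposite strand (4292 counts against 20105).

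The leading β chain was thus Lamb2 in normal lung and Lamb1 in tumours. As a share of the summed RPKM of the 3 β chains, Lamb1 made up 10.5 to 29.1% in normal lung (median 19.7%) and 74.9 to 89.2% in tumours (median 85.0%). Lamb2 made up 44.5 to 58.7% and 10.4 to 15.1%, respectively. Lamb3 made up 12.2 to 41.5% in normal lung (median 32.0%, above that of Lamb1) and 0 to 10.2% in tumours. The log2 ratio of Lamb1 to Lamb2 per length was -1.51 ± 0.61 in normal lung and 2.76 ± 0.31 in tumours (mean ± SD, n = 6 each), a difference of 4.27, or 19.3-fold. The exact two-sided permutation test gave p = 0.00216, the smallest it can give for 6 against 6. After adjustment over the 5 ratios tested it was 0.00541. Every tumour lay above every normal library for Lamb1 and below for Lamb2, so those separations fixed this p. It is not further support. Lamb2 was the higher of the pair in 6 of 6 normal libraries and Lamb1 in 6 of 6 tumours.

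**Figure D2:**
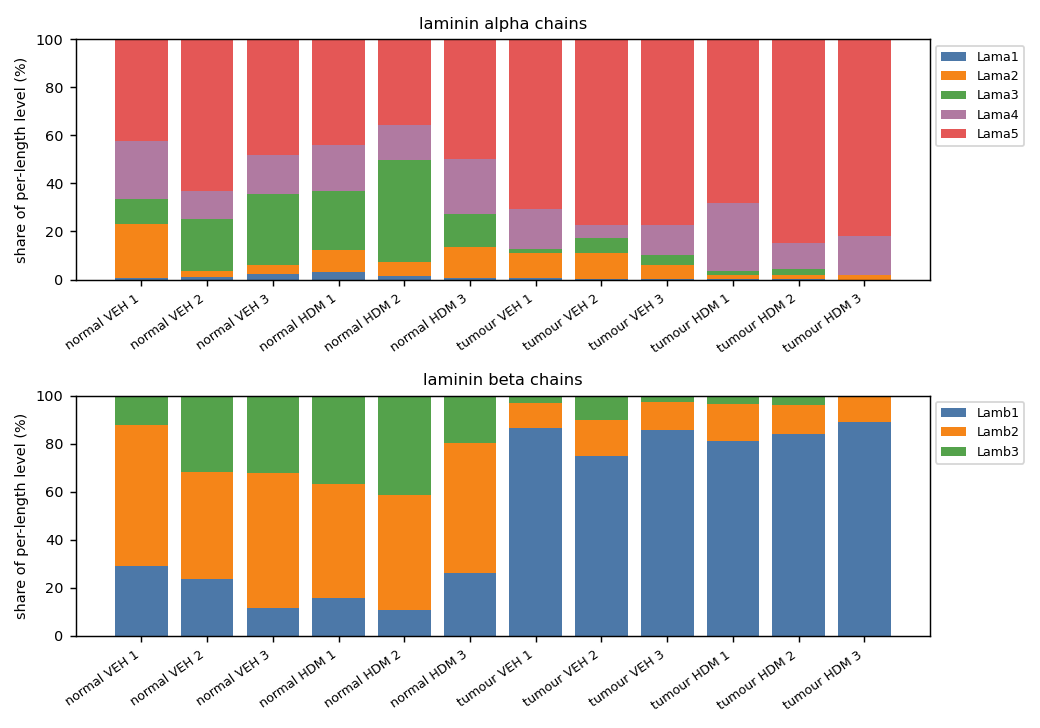
Share of each chain in the summed per-length level of the laminin α and β chains (y axis, percent) in each of the 12 libraries (x axis). Lamb1 takes 74.9 to 89.2% of the β chains in tumours against 10.5 to 29.1% in normal lung, and Lama5 takes 68.2 to 84.6% of the α chains against 35.7 to 63.0%.

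Lamc1 (ENSMUSG00000026478, chromosome 1, 153094597 to 153208774), the γ chain of most laminins, was at 113 to 193 CPM in normal lung (median 160.4 CPM) and 253 to 536 CPM in tumours (median 476 CPM). Its groups did not overlap, and it rose by 1.44 ± 0.18 (adjusted p = 7.05e-05). Lamc3, a γ chain described in skin and nervous tissue, had the largest fall of the members over both treatments, by 4.11 ± 0.43 (17.3-fold, adjusted p = 2.73e-05); under HDM Itga8 changed by -4.90 and Lamc3 by -4.41. Normal libraries held 5.39 to 35.6 CPM of Lamc3 and tumours 0.89 to 1.57 CPM, with no overlap.

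**Figure D3:**
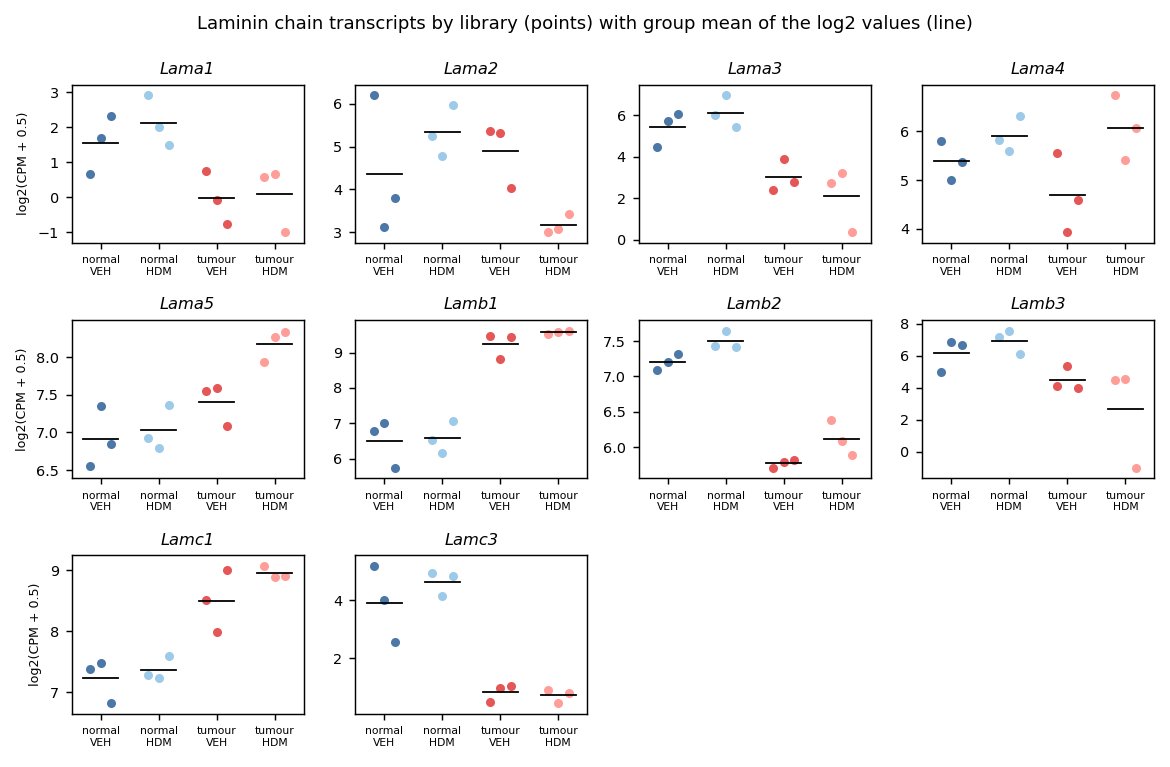
Level of laminin chains as log2(CPM + 0.5) (y axis) in the 4 groups (x axis), with a point per library and a line at the group mean of the log2 values. Tumours sit above normal lung for Lamb1 and Lamc1 and below it for Lamb2, Lama3 and Lamc3, and tumour HDM replicate 3 is the lowest point for Lama3 and Lamb3.

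Of the 5 α chains, Lama5 rose, Lama3 and Lama1 fell, and Lama2 and Lama4 were not called. Lama5 was at 93.3 to 164 CPM in normal lung (median 118 CPM) and 136 to 322 CPM in tumours (median 217 CPM). The groups overlapped through tumour VEH replicate 3 at 136 CPM, and the change was 0.81 ± 0.17 (adjusted p = 0.00174). Under HDM it was 1.14 ± 0.24 (adjusted p = 0.00279), whereas under VEH it was 0.47 ± 0.23 and not called (adjusted p = 0.132). Lama5 shares 85 exon bases with Adrm1 on the opposite strand, which had 23753 counts against 58512.

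Lama3, the α chain of the epithelial trimer, held 21.8 to 124 CPM in normal lung (median 58.4 CPM) and 0.79 to 14.3 CPM in tumours (median 6.30 CPM). The groups were apart, and Lama3 fell by 3.17 ± 0.57 (adjusted p = 0.000836). Lama1, best known from early embryonic basement membranes, was low throughout, at 1.07 to 7.0 CPM in normal lung and 0 to 1.19 CPM in tumours. It fell by 2.43 ± 0.82 (adjusted p = 0.0229). This call was lost without normal VEH replicate 3, normal HDM replicate 1 or tumour VEH replicate 3 (adjusted p up to 0.0582). It was also lost with the prefix as a block (-2.91, adjusted p = 0.0551) and without the 4 libraries with conflicting prefixes. Lama1 was not called under VEH (-2.24 ± 1.15, adjusted p = 0.141) or under HDM (-2.63 ± 1.15, adjusted p = 0.0781).

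Lama2, the α chain around muscle fibres and nerves, spanned 8.24 to 72.7 CPM in normal lung and 7.52 to 40.3 CPM in tumours, and its change of -1.14 ± 0.50 was not called (adjusted p = 0.0707), but passed without normal VEH replicate 2 or 3 (adjusted p 0.0221 and 0.0454). Without normal VEH replicate 1 the change of Lama2 was -0.36 (adjusted p = 0.318). Lama4, the α chain of vessel walls, spanned 31.8 to 79.8 CPM and 14.8 to 106.5 CPM, with a change of -0.19 ± 0.31 (adjusted p = 0.619), while the 6 endothelial markers were all lower in tumours. Lama4 overlaps the noncoding gene Gm67873 on the opposite strand, with 3167 counts against 16153. As a share of the summed RPKM of the α chains, Lama5 took 35.7 to 63.0% in normal lung and 68.2 to 84.6% in tumours, and Lama3 took 10.5 to 42.5% and 0.21 to 6.10%. The log2 ratio of Lama4 to Lama5 was -1.41 ± 0.56 in normal lung and -2.51 ± 0.84 in tumours (mean ± SD, n = 6 each, exact permutation p = 0.0281, adjusted 0.0352). That difference did not pass when normal VEH replicate 1, normal HDM replicate 1, 2 or 3, tumour VEH replicate 2 or 3, or tumour HDM replicate 2 was left out (adjusted p 0.0514 to 0.0649).

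Lama3 and Lamb3 fell alongside epithelial markers. All 5 alveolar type 1 markers were lower in tumours (summed 3031 to 5654 CPM in normal lung, 43.6 to 1167 CPM in tumours), and so were 4 of 5 airway markers (24600 to 112700 CPM against 3.52 to 19280 CPM). Tumour VEH replicate 2 had the highest level of Lama3 and Lamb3 among tumours and also the highest sums of alveolar type 1 (1167 CPM) and type 2 (7782 CPM) markers. Tumour HDM replicate 3 had the lowest level of both chains and the lowest of both sums (43.6 and 65.1 CPM). This was not particular to epithelial markers. The endothelial sum was also highest in tumour VEH replicate 2 (422.8 CPM) and lowest in tumour HDM replicate 3 (91.2 CPM). The smooth muscle sum was lowest in the same HDM tumour (20.9 CPM) but highest in tumour VEH replicate 1 (94.8 CPM). The part of the epithelial cells in these falls was not tested.

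Among integrins that bind laminin, the α subunits split. Itga3, a receptor subunit for the Lama3 and Lama5 chains, was at 216 to 371 CPM in normal lung (median 256 CPM) and 113 to 169 CPM in tumours (median 125 CPM). All tumours lay below all normal libraries, and Itga3 fell by 1.01 ± 0.13 (adjusted p = 7.73e-05). Itgb4, the long-tailed β subunit of hemidesmosomes, fell by 1.81 ± 0.31 (adjusted p = 0.000553), from 25.1 to 71.1 CPM in normal lung (median 58.3 CPM) to 9.97 to 31.5 CPM in tumours (median 11.3 CPM). Only tumour VEH replicate 2 (31.5 CPM) reached into the normal range, above normal HDM replicate 1 (25.1 CPM). Itgb4 shares 1074 exon bases with Galk1 on the opposite strand, which had more counts (24519) than Itgb4 (10518), so its level is uncertain.

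Itga6, which pairs with Itgb4 or Itgb1, went the other way by a small amount. It was at 115 to 162 CPM in normal lung and 114 to 274 CPM in tumours, a change of 0.56 ± 0.22 (adjusted p = 0.0473). This call was lost in 6 of the 12 fits with 1 library left out, those without normal VEH replicate 1 or 2, normal HDM replicate 1 or 2, tumour VEH replicate 3 or tumour HDM replicate 3 (adjusted p up to 0.0912), and with the prefix as a block (0.49, adjusted p = 0.0715). Itgb4 over Itga6, as a log2 ratio per length, was -1.09 ± 0.58 in normal lung and -3.36 ± 0.98 in tumours (mean ± SD, n = 6 each, exact permutation p = 0.00433, adjusted 0.00722), a 4.83-fold shift. Tumour VEH replicate 2 (-1.48) was the only tumour above the lowest normal library (HDM replicate 1, -2.12). Itga7, the laminin receptor of muscle, spanned 16.6 to 64.0 CPM and 4.55 to 41.3 CPM. Its fall by 1.42 ± 0.54 (adjusted p = 0.0399) passed in 4 of the 12 fits with 1 library left out and was lost without normal VEH replicate 2, normal HDM replicate 1 or 2, tumour VEH replicate 1, 2 or 3, or tumour HDM replicate 1 or 3 (adjusted p up to 0.118).

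**Figure D4:**
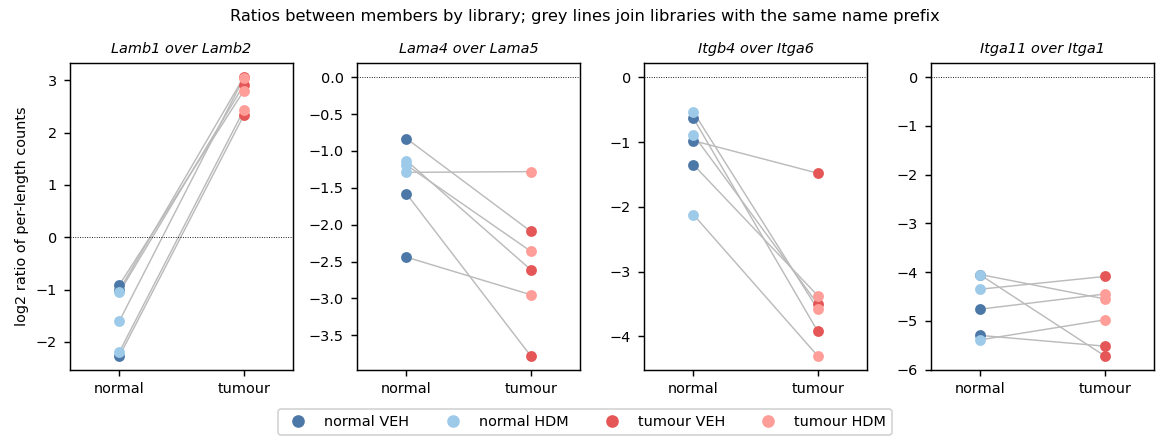
Log2 ratio of per-length counts (y axis) for 4 pairs of members in normal lung and tumours (x axis), with a point per library coloured by group and grey lines between libraries that share a name prefix. The ratio of Lamb1 to Lamb2 lies below 0 in 6 of 6 normal libraries and above 0 in 6 of 6 tumours, and Itga11 over Itga1 overlaps throughout.

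Of the 4 collagen-binding α subunits, 2 fell, 1 rose and 1 was not called. Itga1, a collagen receptor of smooth muscle, fibroblasts and vessels, was at 72.4 to 175 CPM in normal lung (median 152 CPM) and 8.67 to 65.1 CPM in tumours (median 25.2 CPM). The groups did not overlap, and Itga1 fell by 2.47 ± 0.34 (adjusted p = 0.000158). Itga11, a fibroblast collagen receptor, was low, at 0.72 to 2.51 CPM in normal lung and 0.06 to 0.37 CPM in tumours, and fell by 2.90 ± 0.51 (adjusted p = 0.000636). The ratio of Itga11 to Itga1 was -4.65 ± 0.60 in normal lung and -4.89 ± 0.64 in tumours on the log2 scale (mean ± SD, n = 6 each, exact permutation p = 0.506, adjusted 0.506), a difference of -0.24 that was smaller than either SD. With a pseudocount of 2 the difference turned to 0.07 (adjusted p = 0.835).

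Itga10, a collagen receptor of cartilage, rose by 2.0 ± 0.64 (adjusted p = 0.0185) at low levels, 0.15 to 2.33 CPM in normal lung and 1.48 to 17.0 CPM in tumours. Its groups overlapped, and tumour HDM replicate 2 held the 17.0 CPM. Itga2, the collagen receptor of platelets and epithelium, changed by -0.51 ± 0.25 and was not called (adjusted p = 0.0973). It was called lower without normal VEH replicate 2 (adjusted p = 0.0115). Itga1 and Itga2 both overlap Mocs2 on the opposite strand (9538 counts, against 26544 for Itga1 and 4159 for Itga2).

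Falls of Itga1 and Itga8 stood beside falls of all 6 smooth muscle and pericyte markers, whose summed level was 119 to 1145 CPM in normal lung and 20.9 to 94.8 CPM in tumours. Such a fall was not particular to smooth muscle. Every tested marker also fell for endothelium, alveolar type 1 and type 2 cells, B cells, mesothelium, cardiac muscle and Schwann cells. Normal VEH replicate 2 had the lowest normal level of Itga1 (72.4 CPM), of Itga8 (18.8 CPM), of the smooth muscle sum (119 CPM) and of the endothelial sum (1035 CPM). Of 6 fibroblast markers 4 rose and 1 fell, with sums of 622 to 1877 CPM in normal lung and 2915 to 4968 CPM in tumours. The part of these cell types in the integrin levels was not tested.

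The 4 RGD-binding α subunits were all called, 2 in each direction. Itga5 (ENSMUSG00000000555, chromosome 15, 103252713 to 103275270), the fibronectin receptor subunit, was at 46.6 to 64.1 CPM in normal lung (median 56.2 CPM) and 140.1 to 238 CPM in tumours (median 196 CPM). The lowest tumour was more than 2-fold above the highest normal library, and Itga5 rose by 1.79 ± 0.15 (adjusted p = 1.06e-05), with changes of 1.83 ± 0.22 under VEH and 1.75 ± 0.22 under HDM. Itgav, which binds vitronectin, fibronectin and latent TGF-β with several β partners, rose by 1.03 ± 0.16 (adjusted p = 0.000282). Its highest normal library, VEH replicate 2 (99.0 CPM), lay just under its lowest tumour, VEH replicate 2 (101 CPM).

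Itga8, the nephronectin receptor subunit of smooth muscle and fibroblasts, fell by 3.95 ± 0.55 (15.4-fold, adjusted p = 0.000179). Normal lung held 18.8 to 177 CPM (median 115 CPM) and tumours 1.09 to 10.9 CPM (median 9.11 CPM). The groups did not overlap, although normal VEH replicate 2 (18.8 CPM) lay far below the other 5 normal libraries (88.1 to 177 CPM). Under VEH the fall by 3.0 was 2.35 without normal VEH replicate 1. Itga2b, the platelet fibrinogen receptor subunit, fell by 3.55 ± 0.38 (11.7-fold, adjusted p = 3e-05), from 15.9 to 59.8 CPM in normal lung to 1.64 to 4.87 CPM in tumours. It overlaps the noncoding gene Gm74331 on the opposite strand (1528 counts against 4708). Of 4 tested platelet markers 3 fell over both treatments, and under HDM 2 fell and 1 rose. The 5 listed platelet markers summed to 38.0 to 103 CPM in normal lung and 11.8 to 71.2 CPM in tumours. Tumour HDM replicate 3 held both the highest tumour sum (71.2 CPM) and the lowest level of Itga2b (1.64 CPM). The part of platelets in the level of Itga2b was not tested.

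Of the 4 β subunits grouped here as partners of Itgav (Itgb3, Itgb5, Itgb6 and Itgb8), 2 fell and 2 were not called over both treatments. Itgb1 was not counted in this group and is described below. Itgb3, the vitronectin and fibrinogen receptor subunit, fell by 1.22 ± 0.24 (adjusted p = 0.0014), with 32.2 to 46.4 CPM in normal lung, 8.37 to 24.5 CPM in tumours and no overlap. Itgb6, an epithelial activator of latent TGF-β, was at 29.95 to 54.8 CPM in normal lung and 0 to 17.0 CPM in tumours, at 0 in tumour HDM replicate 3 and highest in tumour VEH replicate 2. Its groups did not overlap, and Itgb6 fell by 2.47 ± 0.75 (adjusted p = 0.0147). This missed the threshold without the 4 libraries with conflicting prefixes (-2.50, adjusted p = 0.124) and without the filter on low counts. Under VEH, Itgb6 was not called (-1.95 ± 1.04, adjusted p = 0.154). Under HDM its call (adjusted p = 0.0392) held in 2 of the 12 fits with 1 library left out. Itgb5, a vitronectin receptor subunit, was at 89.5 to 151 CPM in normal lung and 72.4 to 292 CPM in tumours, and its change of 0.50 ± 0.22 was not called (adjusted p = 0.0654). It passed when tumour VEH replicate 2 or 3 or tumour HDM replicate 3 was left out (adjusted p down to 0.00331), when scaled by library size only (0.66, adjusted p = 0.0203) and with the replicate number as a block (0.46, adjusted p = 0.0483). Under VEH, Itgb5 rose by 1.10 ± 0.31 (adjusted p = 0.0186) with no overlap, a call lost without normal VEH replicate 3 or tumour VEH replicate 1, with the prefix as a block and without the 4 libraries with conflicting prefixes (adjusted p up to 0.116). Under HDM it was not called (-0.10 ± 0.31, adjusted p = 0.809). Itgb8, which also activates TGF-β, was low in both tissues, at 1.64 to 3.60 CPM over all 12 libraries. Per length, Itgb5 was the highest of these 4 subunits in every library, at 20.4 to 82.3 RPKM, against at most 7.86 RPKM for Itgb3, 7.71 RPKM for Itgb6 and 0.33 RPKM for Itgb8.

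Itga9, a receptor subunit for tenascin and the partner of Itgb1, fell by 1.75 ± 0.19 (adjusted p = 3.43e-05), with 69.1 to 110 CPM in normal lung, 12.0 to 34.9 CPM in tumours and no overlap. It overlaps the noncoding gene Gm2415 on the opposite strand (3185 counts against 17487). Itga4, the VCAM1 receptor subunit of leukocytes, changed by -0.27 ± 0.30 and was not called (adjusted p = 0.451). Itgb1, the partner of most α subunits described here, had the highest per-length level of all members in every library, at 152 to 188 RPKM in normal lung and 163 to 240 RPKM in tumours. It rose by 0.38 ± 0.12 (1.30-fold, adjusted p = 0.0143), with tumour VEH replicate 2 inside the normal range.

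**Figure D5:**
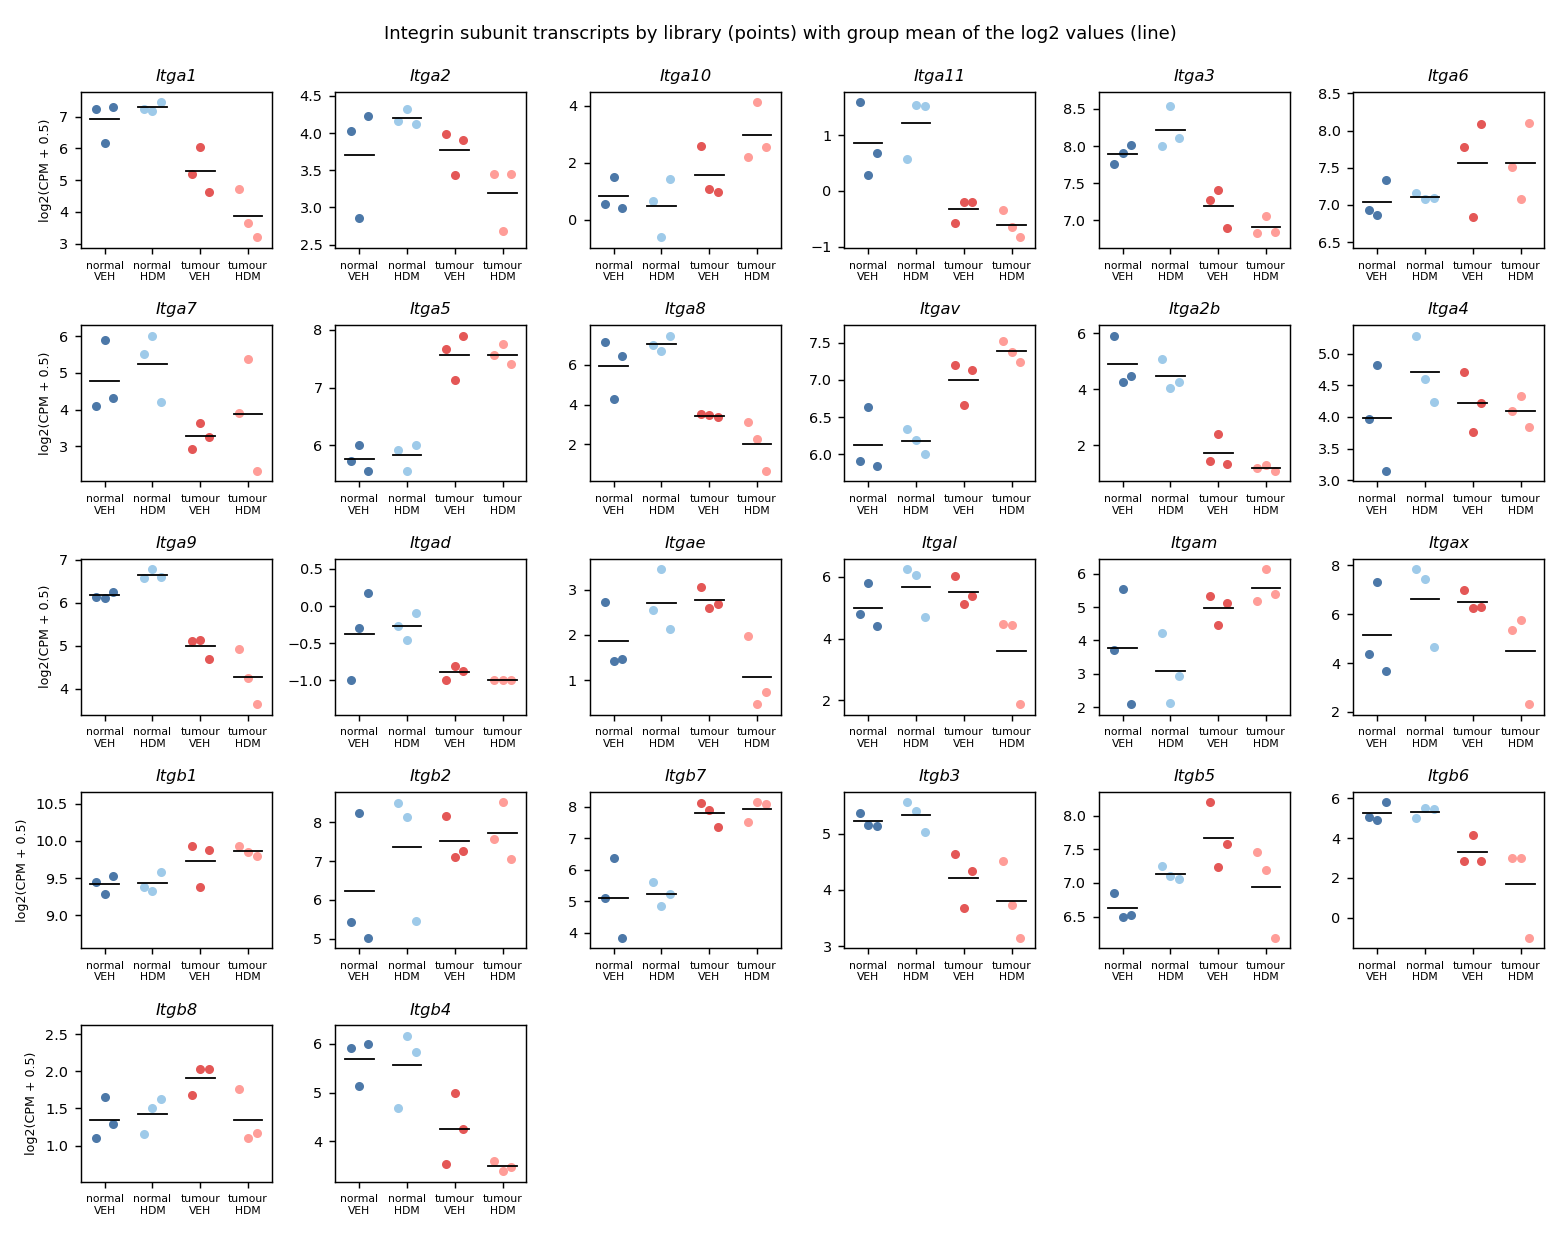
Level of the 26 integrin subunits as log2(CPM + 0.5) (y axis) in the 4 groups (x axis), with a point per library and a line at the group mean of the log2 values. Tumours lie above all normal libraries for Itga5, Itgav and Itgb7 and below them for Itga1, Itga3, Itga8, Itga9, Itga11, Itga2b, Itgb3 and Itgb6.

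Itgb7 (ENSMUSG00000001281, chromosome 15, 102124429 to 102140379), a β subunit of lymphocytes that pairs with Itga4 or Itgae, had the largest rise among the integrins over both treatments. Normal lung held 13.9 to 82.2 CPM (median 35.2 CPM) and tumours 164 to 279 CPM (median 253 CPM). The groups did not overlap, and Itgb7 rose by 2.54 ± 0.38 (5.81-fold, adjusted p = 0.000256), by 2.38 ± 0.53 under VEH and 2.70 ± 0.54 under HDM. Without normal VEH replicate 2, the highest normal library, the rise under VEH was 3.25. Its partners Itga4 and Itgae were not called, Itgae at -0.49 ± 0.42 (adjusted p = 0.33). Per length, Itgb7 was at 59.0 to 101 RPKM in tumours, whereas Itga4 was at 0.93 to 1.83 RPKM and Itgae at 0.19 to 1.71 RPKM in the same libraries. None of 5 T and NK cell markers was called over both treatments, with sums of 10.4 to 18.6 CPM in normal lung, 25.4 to 49.5 CPM in VEH tumours and 1.15 to 11.4 CPM in HDM tumours. Under VEH, 1 of the 5 rose, Cd8a (2.68 ± 0.83, adjusted p = 0.0278), and the sums of all VEH tumours lay above those of all normal libraries. Their part in the level of Itgb7 was not tested. All 5 B cell markers fell (34.1 to 118 CPM against 4.61 to 21.0 CPM). By replicate, Itgb7 was at 276, 237 and 164 CPM in VEH tumours and 182, 279 and 270.1 CPM in HDM tumours. The T and NK cell sums were 37.9, 25.4 and 49.5 CPM, then 11.1, 11.4 and 1.15 CPM. The B cell sums were 15.0, 21.0 and 11.7 CPM, then 14.5, 12.0 and 4.61 CPM. The part of B cells in the level of Itgb7 was not tested either.

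The other leukocyte subunits varied widely among the normal libraries. Itgb2, the β subunit shared by Itgal, Itgam, Itgax and Itgad, was at 32.1 to 362 CPM in normal lung and 133 to 364 CPM in tumours, and was not called (0.30 ± 0.64, adjusted p = 0.695). Without normal VEH replicate 2 the change of Itgb2 was 1.18 (adjusted p = 0.0741). It was called higher with the prefix as a block (0.82, adjusted p = 0.00859) and without the 4 libraries with conflicting prefixes (0.86, adjusted p = 0.0401). Itgax, found on alveolar macrophages and dendritic cells, was at 162, 231 and 172 CPM in normal VEH replicate 2 and normal HDM replicates 1 and 2 and at 12.2 to 24.6 CPM in the other 3 normal libraries, the same division as the alveolar macrophage markers. Its tumour levels were 4.46 to 129 CPM, and the change of -0.79 ± 0.77 was not called (adjusted p = 0.393), and it turned to 0.21 without normal VEH replicate 2 (adjusted p = 0.801). Itgal, the lymphocyte receptor for ICAM1, was not called either (-0.71 ± 0.46, adjusted p = 0.203).

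Itgam, the complement receptor subunit of myeloid cells, rose by 1.48 ± 0.56 (adjusted p = 0.0396), with 3.75 to 46.0 CPM in normal lung and 21.4 to 70.2 CPM in tumours. Normal VEH replicate 2 was at 46.0 CPM and the other 5 normal libraries at 3.75 to 18.02 CPM, so only that library overlapped the tumours. Without it the rise was 2.15. The call was lost without normal VEH replicate 1, normal HDM replicate 2 or 3, tumour VEH replicate 1 or 3, or tumour HDM replicate 2 (adjusted p up to 0.0854). It was also lost without the filter on low counts. Under VEH the change of Itgam was 0.61 ± 0.78 and not called (adjusted p = 0.547). Of 5 macrophage and monocyte markers 2 rose (Csf1r and Adgre1), 1 fell (Lyz2) and 2 were not called, with sums of 2598 to 12700 CPM in normal lung and 1802 to 3819 CPM in tumours, and 4 of 5 neutrophil markers fell (18.4 to 797 CPM against 10.9 to 65.1 CPM). Their part in Itgam was not tested.

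HDM was compared with VEH within each tissue. In normal lung, 0 of 36 members were called, as were 0% of all genes tested. No member had an unadjusted p below 0.05 (0 of 36, against 5.54% of all genes), and DESeq2 called 0 members (0.103% of all genes). The 3 HDM libraries lay above the 3 VEH libraries for Itga9, Itgb5 and Lamb2, with no overlap, and for no other member (10.3% of all genes did not overlap, 4.47% with HDM above). For Lamb2 the levels were 136, 147 and 159 CPM after VEH and 172, 200.1 and 171 CPM after HDM, a difference of 0.30 ± 0.14 on the log2 scale (adjusted p = 0.887, the smallest of the members).

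In tumours, 0 of 36 members were called by edgeR in HDM against VEH (0.0946% of all genes). DESeq2 called Itgae alone of the members, as lower, against 5.48% of all genes. An unadjusted p below 0.05 was found for 9 members, against 16.7% of all genes. In 10 members the groups did not overlap (22% of all genes): Itgav, Lama5, Lamb1 and Lamb2 lay above VEH after HDM (11.3% of all genes), and Itga8, Itga2b, Itgae, Itgal, Itgax and Lama2 below it (10.7%). Lama5 had the smallest adjusted p (0.199). It was at 186, 192 and 136 CPM in VEH tumours and at 243, 307 and 322 CPM in HDM tumours, a difference of 0.77 ± 0.24.

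Lama4 went the same way, with 46.5, 14.8 and 23.5 CPM in VEH tumours and 106.5, 42.0 and 66.3 CPM in HDM tumours (1.34 ± 0.44, adjusted p = 0.213). VEH replicate 1 overlapped HDM replicate 2. Lama2 was at 40.3, 39.5 and 15.8 CPM in VEH tumours and 7.52, 7.99 and 10.3 CPM in HDM tumours (-1.89 ± 0.73, adjusted p = 0.249). Itgae, the epithelial-homing subunit of lymphocytes, was at 7.82, 5.54 and 5.91 CPM in VEH tumours and 3.45, 0.89 and 1.18 CPM in HDM tumours (-1.81 ± 0.61, adjusted p = 0.213). Itgal was at 64.7, 34.5 and 40.7 CPM in VEH tumours and 21.9, 21.1 and 3.15 CPM in HDM tumours (-1.60 ± 0.67, adjusted p = 0.275). The T and NK cell marker sums in the same tumours were 37.9, 25.4 and 49.5 CPM after VEH and 11.1, 11.4 and 1.15 CPM after HDM, with 0 of 5 markers called. Their part in Itgae and Itgal was not tested.

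The interaction, which tests whether the tumour difference itself differed between HDM and VEH, called 0 of 36 members by edgeR (0% of all genes) and 0 by DESeq2 (0.824% of all genes). Before adjustment, 7 members had a p below 0.05 (Itga1, Itga3, Itga9, Itgae, Itgal, Itgb5 and Lama2), against 9.39% of all genes, and the smallest adjusted p was 0.48. The tumour change of Itgae was 0.86 ± 0.60 under VEH and -1.84 ± 0.61 under HDM, a difference of -2.70 ± 0.85. Without normal VEH replicate 1 the change of Itgae under VEH was 1.53 (adjusted p = 0.0941). Its fall under HDM was lost on leaving out tumour HDM replicate 2 or 3 or normal HDM replicate 2 (adjusted p up to 0.114). For Itgb5 the changes were 1.10 ± 0.31 and -0.10 ± 0.31. For Lama2 they were 0.02 ± 0.70 under VEH and -2.29 ± 0.74 under HDM. Without normal VEH replicate 1, Lama2 was called higher under VEH (1.56, adjusted p = 0.0351). Its fall under HDM was lost without normal HDM replicate 3 or any 1 of the 3 HDM tumours (adjusted p up to 0.085). A call under 1 treatment and not the other was therefore not shown to be a difference between treatments.

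Genes that work with these receptors and chains were taken as 3 lists. Of 21 basement membrane and laminin-binding genes, 5 rose and 13 fell in tumours over both treatments, against 28.1% higher and 34.8% lower over all genes. The median log2 change was -0.66 over the 21 genes and -0.09 over all genes. Col18a1 (3.57 ± 0.36, adjusted p = 2.6e-05), a basement membrane collagen, and Nid1 (2.78 ± 0.22, adjusted p = 7.81e-06), the linker that binds the γ chain of Lamc1, rose most. Col4a6, a type IV collagen chain, fell by 4.07 ± 0.39 (adjusted p = 1.73e-05), and Ntn4, a netrin that binds laminin γ chains, by 3.73 ± 0.39 (adjusted p = 3.22e-05). The counts were 4 higher and 10 lower under VEH (18.2% and 20.6% of all genes), and 5 higher and 11 lower under HDM (23% and 28.9%).

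Of 18 tested integrin ligands, 6 rose and 9 fell (median -0.41), against 28.1% higher and 34.8% lower over all genes. The largest rises were in Fn1, fibronectin and the ligand of the Itga5 receptor (4.53 ± 0.59, adjusted p = 0.000114), and Spp1, osteopontin, bound by Itgav and Itga9 receptors (3.86 ± 0.57, adjusted p = 0.00023). Npnt, nephronectin and the ligand of the Itga8 receptor, fell by 4.08 ± 0.47 (adjusted p = 5.56e-05), and Vtn, vitronectin, by 3.54 ± 0.65 (adjusted p = 0.000856). Fn1 was at 2980 to 12100 CPM in tumours and 119 to 847 CPM in normal lung, and Npnt at 2.85 to 51.2 CPM and 213 to 433 CPM. So Itga5 and Fn1 were both higher in tumours, and Itga8 and Npnt both lower. The other named ligands did not move with all of their receptor subunits. Spp1 rose, as did Itgav, while Itga9 fell. Vtn fell, as did Itgb3, while Itgav rose. Of 23 intracellular adaptors that link integrins to actin, 7 rose and 7 fell (median 0.05), against 62.9% of all genes called in either direction. Actn1, an actin cross-linker (1.24 ± 0.11, adjusted p = 1.46e-05), and Zyx, a focal adhesion protein (0.78 ± 0.17, adjusted p = 0.00212), rose most. Fermt1, the epithelial kindlin, fell by 4.17 ± 0.81 (adjusted p = 0.0013), and Lims2, a partner of integrin-linked kinase, by 4.02 ± 0.52 (adjusted p = 0.000106).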

How the data were processed

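The authors deposited raw read counts per Ensembl gene with gene lengths, per the file headers; the submitters' processing notes name Trim Galore, STAR, Subread, featureCounts and mm39, without versions. The strand setting and annotation release are not given in the sources used here. Of 37 members, 21 share exon bases with a gene on the opposite strand, and in 13 that gene had over 10% of the member's counts. Symbols and coordinates came from GENCODE M39 (GRCm39), which held 78168 of 78298 gene IDs; the other 130 carried 0.143% of counts. The deposited length equalled that release's for 3 of 37 members, so RPKM, shares and ratios depend on it.

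Genes under a minimum count of 10 were removed (filterByExpr), leaving 22190. Counts were scaled by TMM and fitted over 12 libraries with a coefficient per group and 8 residual degrees of freedom (edgeR 4.0.16, limma 3.58.1, R 4.3.3, robust quasi-likelihood, two-sided). Over both treatments, the change is the mean of the VEH and HDM differences. SE is the log2 change divided by the square root of F. Ratios used counts plus 0.5 over the deposited length. The test was tried on simulated counts with 200 changed genes. Alternatives were DESeq2 1.42.0, other scalings, no filter, blocks, a pseudocount of 2 and left-out libraries. Every member may be named; levels were described most fully for those called in a comparison at a log2 change of at least 1 or in a ratio, and the others by range, change and adjusted p. From each list of partner genes, up to 2 rises and 2 falls were named. Members and lists were chosen with earlier results of these data known. Replicate numbers did not pair libraries and were not used. Values of 1 member and of 1 of the 5 ratios are not reported here, though counts and adjustments include them.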

Additional observations from a re-analysis of the deposited data

How the results depend on the processing

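Over both treatments, members higher and lower were 9 and 14 without the filter on low counts (33.5% of all genes called), 9 and 18 by the DESeq2 Wald test (55.5%), 11 and 15 scaled by library size (64.1%), 10 and 14 with the library-name prefix as a block (57.4%), and 10 and 12 without the 4 libraries with conflicting prefixes (51.5%), against 10 and 16 (62.9%). The lower counts without the filter and by DESeq2 include Itgad, which the main fit did not test. Within VEH, the 11 lower members became 6 without the filter, 6 with the prefix block and 4 without those 4 libraries, and 5 to 14 with 1 library left out; the 4579 lower calls over all genes became 3318, 2722 and 2069 in the first 3 of these. Within HDM, 17 became 11 without those 4 libraries, and 6402 over all genes became 4029. In HDM against VEH tumours, DESeq2 called 1 lower member against 0, and 5.48% of all genes against 0.0946%. Itgb2 reversed under HDM, from 0.0049 to -0.89 with the prefix block (adjusted p = 0.0444), and its main value was not called; the same block called it higher over both treatments (0.82, adjusted p = 0.00859) and under VEH (2.53, adjusted p = 0.00609), as did the fit without the 4 libraries (0.86, 0.0401, and 2.60, 0.00869). The cause was not tested.

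Without the 4 libraries, the ratio differences were 4.48 for Lamb1 over Lamb2 (adjusted p = 0.0714), -1.15 for Lama4 over Lama5 (0.107) and -2.25 for Itgb4 over Itga6 (0.0952); 4 against 4 allow no permutation p below 0.0286. Paired within prefix they were 4.27 (0.0521), -1.10 (0.0781) and -2.27 (0.0521), where exact sign flips over 6 prefixes allow none below 0.0312. With 1 library left out, Lama4 over Lama5 ranged from -1.35 to -0.85, and the differences in Lamb1 over Lamb2 and Itgb4 over Itga6 passed in every such fit.

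The median log2 change of all genes over both treatments was -0.09 under TMM, -0.14 under DESeq2 size factors and 0.06 under library size only, and all-gene calls went from 6236 higher and 7726 lower to 7313 and 6919 in the last; no called member changed direction, and 5 values near 0 that were not called changed sign under 1 of these scalings (Itga2 and Lama2 under VEH, Itgb2, Itgb5 and Itgb8 under HDM). With the replicate number as a block, members higher and lower were 11 and 16 over both treatments (60.9% of all genes called). They were 6 and 11 under VEH (35.3%) and 7 and 17 under HDM (49.6%). In the HDM comparisons 0 members were called (0% of all genes in normal lung, 0.00451% in tumours). Same-numbered libraries of a treatment correlated at -0.344 to 0.193 in their deviations from group means, with 2 of 6 above 0.1, and 4 libraries correlated best with their own number. Libraries sharing a prefix correlated at -0.26 to 0.228, with 3 of 6 above 0.1. Itgad, Itga11 and Lama1 had few counts, which limits their precision.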
